A study of Sus scrofa with 2 samples.

Results

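The genes described are the TGF-beta isoforms (TGFB1, TGFB2, TGFB3), the inhibin and activin subunits (INHA, INHBA, INHBB), the follistatin family (FST, FSTL1, FSTL3) and BMP4. They were chosen by name, 10 genes of the 34570 entries listed. Of these, 9 had a row in the tables and 7 had a value above 0. INHBB and FSTL3 were listed at 0 in both libraries, and FSTL1 was not analysed here. Each of the 9 had a single entry under its symbol.

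RNA came from ovarian follicular granulosa cells of female Chinese Erhualian pigs, the somatic cells that surround the oocyte. The SMAD4-siRNA cells had been given an siRNA against SMAD4, the SMAD shared by the TGF-beta, activin and BMP branches, and the NC-siRNA cells had been given NC-siRNA, taken here as the control. Each group was 1 library, made from equal amounts of RNA of 3 individuals, so nothing measures the spread between animals or between transfections, and no test between the conditions was possible. The labels do not say whether both pools came from the same animals, nor give the animals' age, the siRNA dose or the time after transfection.

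TGF-beta and activin ligands are secreted dimers that bind a type II and a type I serine/threonine kinase receptor, after which SMAD2 or SMAD3 joins SMAD4 and enters the nucleus. BMPs use the same layout with SMAD1, SMAD5 or SMAD9. An alpha subunit (INHA) paired with a beta subunit makes inhibin, which lowers pituitary FSH release, while a pair of beta subunits makes activin. Follistatin binds activin and keeps it from its receptor. Granulosa cells are a main source of inhibin in the female.

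Values are in UQRPKM, the authors' upper-quartile-scaled RPKM, which is a measure per length. Levels of different genes can be compared within a library as far as the gene lengths used are right. The annotation that set those lengths was not given. The libraries held at least 17394711 reads on genes for SMAD4-siRNA and 17680952 for NC-siRNA. SMAD4 was at 47.9 UQRPKM in the SMAD4-siRNA library, against 85.0 in the NC-siRNA library, a ratio of 0.563 (95% counting interval 0.497 to 0.639). Every range in parentheses below is such a 95% interval. It covers counting error only, and without molecular identifiers some reads may be copies of the same molecule.

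The label granulosa cell was set against marker lists. FOXL2, GATA4, NR5A1, NR5A2 and HSD3B1 had values well above 0, with FOXL2 at 146 UQRPKM in the SMAD4-siRNA library and 132 in the NC-siRNA library. Of the 15 granulosa markers, AMH, CYP11A1, CYP19A1 and LHCGR were listed at 0 in both libraries, and FSHR was at 3.48 UQRPKM after SMAD4-siRNA and 4.93 after NC-siRNA. Also low were AMHR2 (8.49 and 17.2), HSD17B1 (18.0 and 9.31), STAR (11.2 and 4.94) and ESR2 (0.645 and 0), each in the same order. INHA, also on that list, is described below. A listed 0 is weak evidence here, because FLNA and POR, which most cells use, were also listed at 0. The same holds for SMAD1, SMAD5, INHBB and FSTL3.

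Among the 3 TGF-beta isoforms, TGFB1 was higher and TGFB3 was lower after SMAD4-siRNA, and TGFB2 was low in both libraries. TGFB1 was at 273 UQRPKM (252 to 296) after SMAD4-siRNA, on no fewer than 603 reads, against 162 (145 to 180) after NC-siRNA, on no fewer than 324 reads. Its ratio of SMAD4-siRNA over NC-siRNA was 1.69 (1.47 to 1.94). TGFB1 is the isoform best known from platelets, immune cells and fibroblasts, and the intervals of its levels in the libraries did not overlap.

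TGFB3, an isoform known in mice for its part in palate fusion, was the lowest of the 7 by ratio. Its level was 103 UQRPKM (95.5 to 111) after SMAD4-siRNA, on no fewer than 662 reads, against 197 (186 to 209) after NC-siRNA, on no fewer than 1148 reads. This gave a ratio of 0.524 (0.475 to 0.577), just short of the 2-fold size used as the main threshold. Here too the intervals of the levels were apart. Among the 9664 measured genes with at least 100 reads, 1.52% had a log2 ratio as low as that of TGFB3 or lower, and 2.63% had one above that of TGFB1.

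TGFB2, which in mice is needed for heart and skeletal development, was at 10.6 UQRPKM (7.64 to 14.4) after SMAD4-siRNA and at 14.0 (10.4 to 18.5) after NC-siRNA. With at least 41 and 49 reads in that order, the ratio of 0.760 had an interval from 0.489 to 1.17. A difference in TGFB2 was not detectable at these lowest numbers of reads, and the interval leaves room for ratios as low as 0.489.

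The summed level of the 3 isoforms was 387 UQRPKM after SMAD4-siRNA and 373 after NC-siRNA, a ratio of 1.04 in the values as deposited. No interval was computed for this ratio, and it depends on the scaling and on the gene lengths used. With both libraries set to the same sum of values, it is multiplied by 1.09. The makeup of the isoforms differed between the libraries. TGFB1 held 70.6% of the summed level in the SMAD4-siRNA library and 43.4% in the NC-siRNA library. TGFB3 held 26.7% after SMAD4-siRNA and 52.9% after NC-siRNA, and TGFB2 held 2.75% and 3.76% in the same order. Per length, TGFB1 was the leading isoform after SMAD4-siRNA and TGFB3 the leading one after NC-siRNA. These shares rest on the gene lengths of the annotation. The smallest whole lengths were 2251 bases for TGFB1 and 6543 for TGFB3. The smallest whole reads were higher for TGFB3 than for TGFB1 in both libraries. They were 662 and 603 after SMAD4-siRNA, and 1148 and 324 after NC-siRNA.

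Set as a ratio of levels inside each library, TGFB1 over TGFB3 was 2.65 in the SMAD4-siRNA library and 0.820 in the NC-siRNA library. That balance differed by a factor of 3.23 (2.73 to 3.82) between the libraries. A ratio between genes of the same library is free of any scaling of whole libraries, so this factor does not depend on how the upper quartile was set. TGFB1 over TGFB2 was 25.7 in the SMAD4-siRNA library and 11.6 in the NC-siRNA library, a factor of 2.22 (1.40 to 3.53). TGFB2 over TGFB3 was 0.103 and 0.0710 in the same order, a factor of 1.45 with an interval from 0.923 to 2.27 that holds 1.

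**Figure D1:**
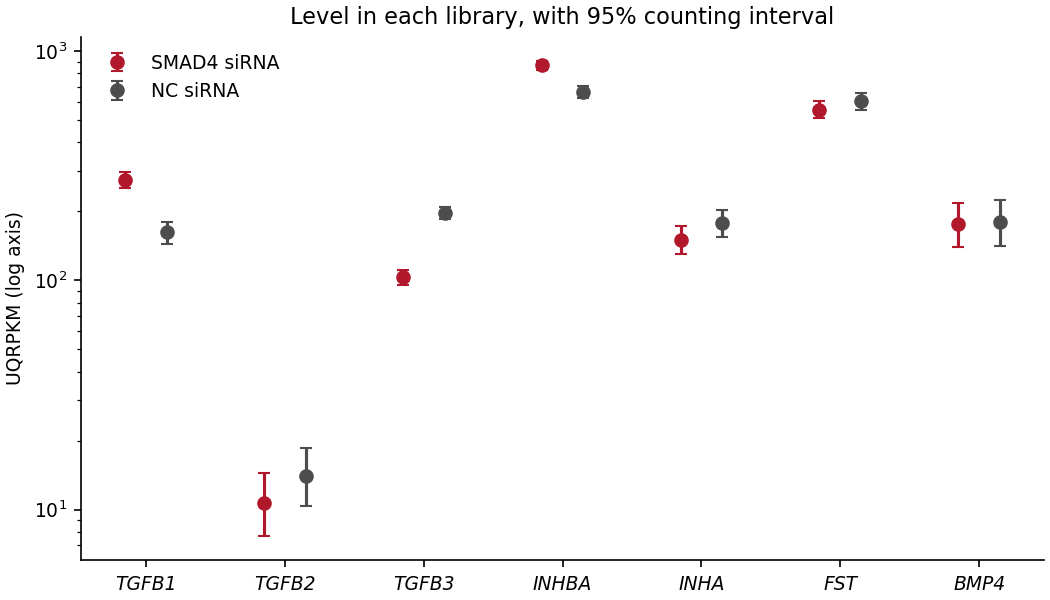
Level of each of the 7 measured genes in the SMAD4-siRNA library (red, left) and the NC-siRNA library (grey, right), in UQRPKM on a log axis. Points are the single library's value and bars its 95% counting interval. TGFB1 (273 and 162), TGFB3 (103 and 197) and INHBA (868 and 663) have bars that do not overlap between the libraries.

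INHBA, the beta A subunit that makes activin A and inhibin A, had the highest level of the 7 genes in both libraries and was higher after SMAD4-siRNA. INHBA stood at 868 UQRPKM (829 to 909) after SMAD4-siRNA, on no fewer than 1821 reads, against 663 (627 to 701) after NC-siRNA, on no fewer than 1263 reads. The ratio was 1.31 (1.22 to 1.41), and 8.65% of genes with at least 100 reads had a log2 ratio above it. INHBA ranked 1836th by level among the 17390 genes above 0 in the SMAD4-siRNA library and 2357th among the 17277 above 0 in the NC-siRNA library.

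INHA, the alpha subunit found only in inhibins, was at 150 UQRPKM (130 to 173) after SMAD4-siRNA and 178 (154 to 203) after NC-siRNA. The intervals of these levels overlap, and the ratio of 0.848 had an interval from 0.694 to 1.03. INHBB, the beta B subunit of activin B and inhibin B, was listed at 0 in both libraries, so nothing can be said of its share.

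The balance of subunits lay further towards INHBA in the SMAD4-siRNA library. INHBA over INHA was 5.77 in the SMAD4-siRNA library and 3.74 in the NC-siRNA library, a factor of 1.54 (1.25 to 1.91). These are levels of RNA, and the amounts of activin and inhibin protein were not measured.

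FST, follistatin, had the next highest level of the 7 genes. Follistatin stood at 556 UQRPKM (510 to 604) after SMAD4-siRNA, on no fewer than 557 reads, against 604 (555 to 657) after NC-siRNA, on no fewer than 550 reads. Its ratio of 0.920 had an interval from 0.816 to 1.04, so a difference was not detectable at these lowest numbers of reads. If the true reads are more, the interval is narrower. The interval, with a lower bound of 0.816, lies above that of TGFB3. FSTL3, a relative of follistatin that also binds activin, was listed at 0 in both libraries.

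Activin subunit and inhibitor were thus close to each other after NC-siRNA and further apart after SMAD4-siRNA. INHBA over FST was 1.56 in the SMAD4-siRNA library and 1.10 in the NC-siRNA library, a factor of 1.42 (1.24 to 1.64). INHA over FST was 0.271 in the SMAD4-siRNA library and 0.294 in the NC-siRNA library, a factor of 0.922 (0.729 to 1.16). The balance of INHBA with INHA and with FST thus differed beyond counting error, while the interval for INHA over FST holds 1. These pairs, like those of the TGF-beta isoforms, were chosen after the values were seen. No share over other pairs of genes was computed to set beside them.

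BMP4, a BMP that in the ovary is known from theca cells and acts on granulosa cells, was at 176 UQRPKM (140 to 218) after SMAD4-siRNA and 179 (142 to 224) after NC-siRNA. It rests on at least 83 and 77 reads in that order, and the ratio was 0.979 (0.709 to 1.35). BMP4 over FST was 0.316 in the SMAD4-siRNA library and 0.297 in the NC-siRNA library, a factor of 1.06 (0.753 to 1.505). In the values as deposited, BMP4 had the ratio nearest to 1 of the 7 genes, with a wide interval, and with equal sums of values FST did.

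**Figure D2:**
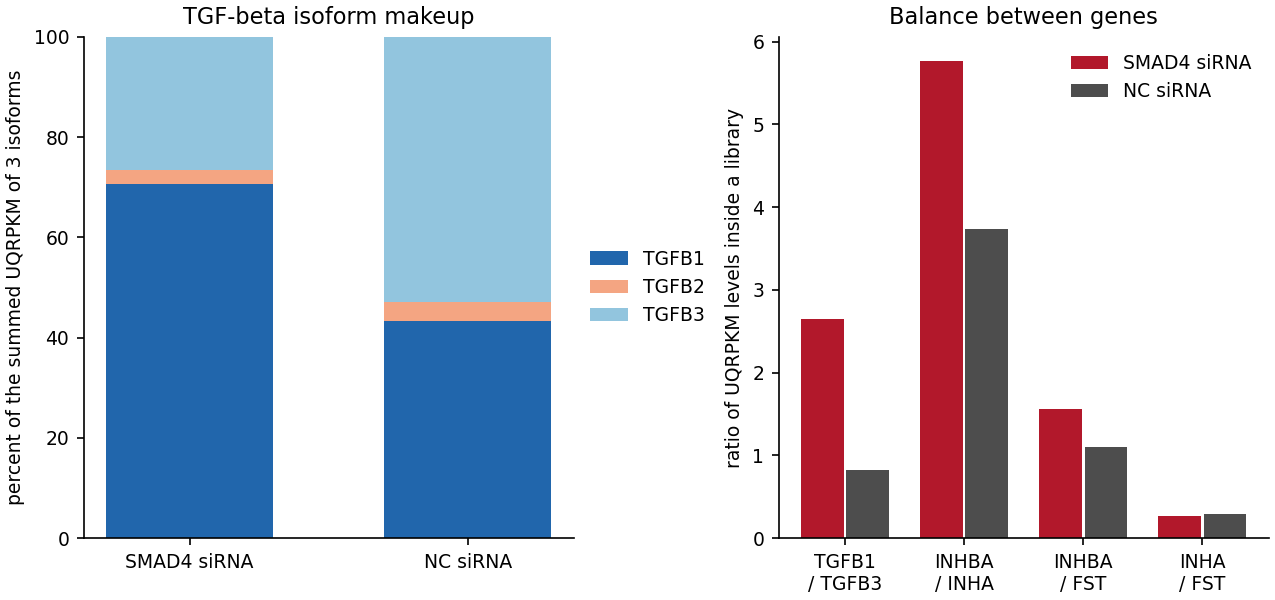
Left, percent of the summed UQRPKM of the TGF-beta isoforms held by each isoform in the SMAD4-siRNA and NC-siRNA libraries (TGFB1 70.6% and 43.4%). Right, ratio of levels between pairs of genes inside the SMAD4-siRNA library (red) and the NC-siRNA library (grey), with INHBA over INHA at 5.77 and 3.74 the highest of the 4 pairs drawn; bars are single values with no replicates.

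By level, the 7 genes spanned 81.6-fold in the SMAD4-siRNA library and 47.4-fold in the NC-siRNA library. In the SMAD4-siRNA library the order was INHBA, FST, TGFB1, BMP4, INHA, TGFB3 and TGFB2, and only the neighbours BMP4 and INHA had overlapping counting intervals. In the NC-siRNA library the order was INHBA, FST, TGFB3, BMP4, INHA, TGFB1 and TGFB2. There INHBA and FST overlapped, as did each pair of neighbours from TGFB3 down to TGFB1, although TGFB3 (186 to 209) and TGFB1 (145 to 180) were themselves apart. TGFB1 and TGFB3 thus held each other's place in the order between the libraries. The order in each library rests on the gene lengths of the annotation, which the counting intervals do not cover. TGFB2 was last in both libraries, with an interval below that of every other measured gene of the 7.

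As a group, the ligands and binding proteins had no common direction. Of the 7, 2 had a ratio above 1 and 5 below 1, and the median log2 ratio of (value + 1) was -0.12, beside -0.05 over all 16609 measured genes, those with a mean value of at least 1. None was higher by 2-fold (0 of 7, where 7.17% of all measured genes were) and none lower by 2-fold (0 of 7, where 6.68% were). At 1.5-fold, TGFB1 was higher (1 of 7, where 13.5% of all genes were) and TGFB3 lower (1 of 7, where 13.7% were). Most genes past these folds have few reads. Among genes with at least 100 reads, 1.32% were higher and 1.12% lower by 2-fold, and 4.39% were higher and 5.69% lower by 1.5-fold. Both TGFB1 and TGFB3 are among the 6 of the 7 with that depth.

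An interval wholly above 1 was found for TGFB1 and INHBA (2 of 7, where 12.7% of all genes had one), and an interval wholly below 1 for TGFB3 (1 of 7, where 21.5% had one). Among genes with at least 100 reads these shares were 17.6% and 32.4%, so an interval that excludes 1 is common in this pair of libraries at that depth. INHA, FST, BMP4 and TGFB2 had intervals that hold 1. With both libraries set to the same sum of values, each ratio is multiplied by 1.09. FST then stood at 0.998 and BMP4 at 1.06, while TGFB1 stood at 1.83 (1.60 to 2.11), INHBA at 1.42 (1.32 to 1.53) and TGFB3 at 0.568 (0.516 to 0.626).

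**Figure D3:**
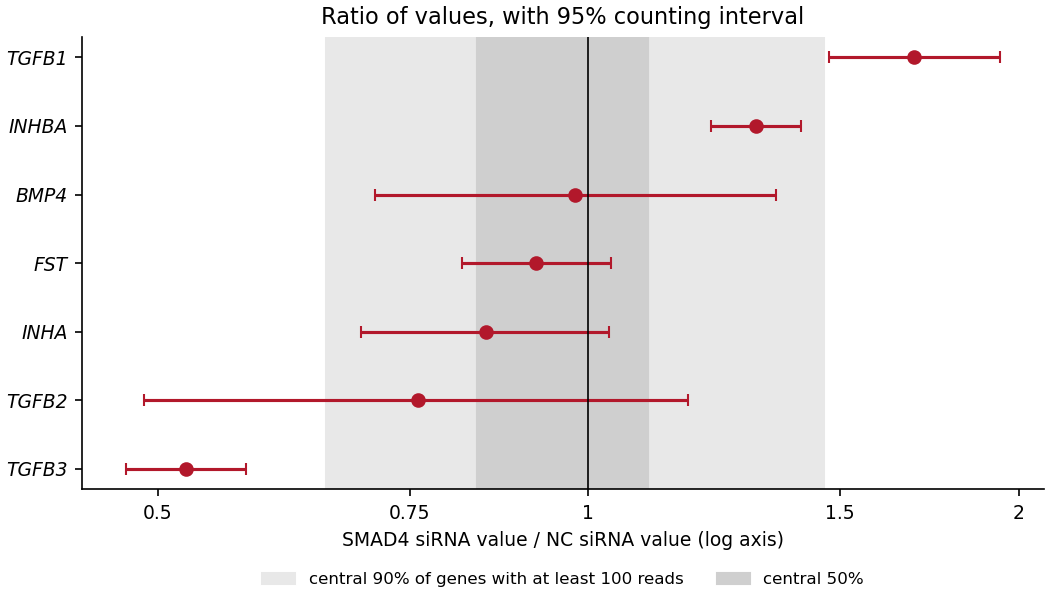
Ratio of the SMAD4-siRNA value to the NC-siRNA value for the 7 measured genes, on a log axis, with 95% counting intervals. The light band holds the central 90% of genes with at least 100 reads (0.656 to 1.46) and the dark band the central 50% (0.836 to 1.10). TGFB1 (1.69) and TGFB3 (0.524) lie outside the light band.

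**Figure D4:**
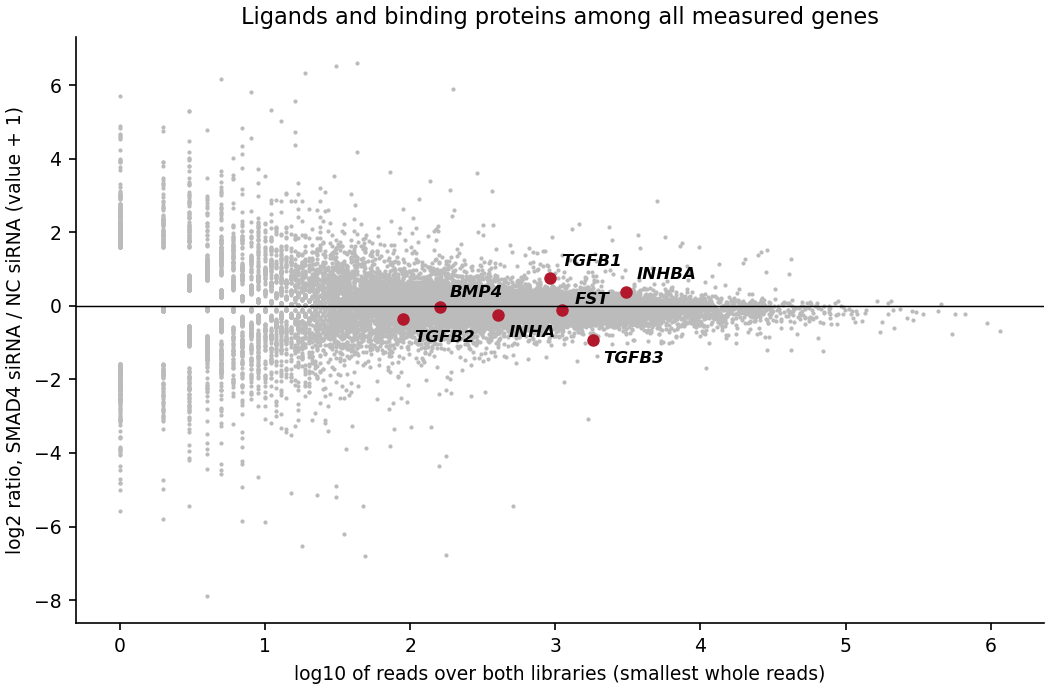
Log2 ratio of (value + 1) against the log10 of smallest whole reads over both libraries, for the 16609 measured genes (grey) and the 7 genes described (red). The grey cloud narrows with reads; TGFB1 (927 reads) and TGFB3 (1810 reads) lie at its upper and lower edge.

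Marker levels of other cell types were as follows. The summed level of 8 theca and stroma markers was 372183 UQRPKM after SMAD4-siRNA and 589441 after NC-siRNA, most of it ACTA2, while the theca-defining CYP17A1 and INSL3 were listed at 0 in both. The summed level of 7 leukocyte markers was 580 and 605 in the same order, most of it CD14, with PTPRC, the common leukocyte antigen, at 0.606 after SMAD4-siRNA and 0.334 after NC-siRNA and CD3E listed at 0. Of 7 endothelial markers, TEK and TIE1 were listed at 0. The sum was 352 after SMAD4-siRNA and 452 after NC-siRNA, most of it PECAM1 and ERG. VWF (1.34 and 1.72), KDR (2.21 and 0.934) and CLDN5 (10.3 and 7.55) were low, each in that order. KDR and CLDN5 had ratios above 1, with intervals that hold 1. Sums were 470 and 422 for 7 surface epithelium markers, 61.7 and 77.4 for 7 oocyte markers, and 4.63 and 4.53 for 3 erythroid markers, each in that order. Most of the surface epithelium sum was KRT8 (428 and 386), with KRT7 and MSLN listed at 0 in both libraries. Most of the oocyte sum was GDF9 (56.6 and 73.2), with ZP2, ZP3, DAZL and DDX4 listed at 0 in both. Only 1 leukocyte, 1 surface epithelium, 1 oocyte and 0 erythroid markers had at least 100 reads. None of these had an interval that excludes 1, but so few genes say little. Of the 5 measured leukocyte markers at any depth, 4 had a ratio below 1. ITGAM, on 13 reads, had one above 1, at 2.04 (0.570 to 9.08). Only CD79A, with 22 reads, had an interval that excludes 1, at a ratio of 0.267 (0.0770 to 0.754). Among markers with at least 100 reads, 4 of 5 for theca and stroma and 2 of 2 for endothelium, PECAM1 and ERG, had an interval wholly below 1. None in these 2 lists had one wholly above 1. Of all genes with at least 100 reads, 32.4% had an interval wholly below 1 and 17.6% wholly above. The granulosa markers summed to 24838 after SMAD4-siRNA and 13823 after NC-siRNA, most of it HSD3B1, an enzyme of progesterone synthesis. The part of these cells in the ligand levels was not tested. In bulk RNA, fewer cells of a type and less RNA per cell cannot be told apart.

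The other ligands of the superfamily were mostly low. Of 21 with a row, 7 were listed at 0 in both libraries and 3 had at least 100 reads. INHBE, the beta E subunit known mainly from liver, was at 133 UQRPKM after SMAD4-siRNA and 91.8 after NC-siRNA, a ratio of 1.45 (1.20 to 1.77). GDF11, a relative of myostatin, was at 223 and 244 in the same order, with a ratio of 0.914 (0.726 to 1.15). GDF9, the growth factor best known from the oocyte, was at 56.6 after SMAD4-siRNA and 73.2 after NC-siRNA, a ratio of 0.772 (0.559 to 1.07). Of these 3, INHBE alone had an interval that excludes 1, and it lay wholly above 1. Among all genes with at least 100 reads, 17.6% had an interval wholly above 1 and 32.4% one wholly below.

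RNA of most genes listed as latent TGF-beta carriers or TGF-beta-binding proteoglycans and accessory receptors was lower after SMAD4-siRNA. Of 11 with at least 100 reads, 9 had a log2 ratio below 0, beside 57.9% of all genes at that depth. For 8 the interval lay wholly below 1 and for 1 wholly above 1, beside 32.4% and 17.6%. Their median ratio was 0.743, beside 0.961 for all genes with at least 100 reads. LTBP2, a latent TGF-beta-binding protein of the matrix, was at 2624 UQRPKM after SMAD4-siRNA and 4503 after NC-siRNA, a ratio of 0.583. FBN1, the fibrillin to which LTBPs attach, had a ratio of 0.588 (0.570 to 0.606), and EMILIN1, which binds the TGF-beta precursor, had 0.645 (0.612 to 0.680). At the other end FMOD had a ratio of 0.893, BGN, a small proteoglycan, 1.05 and ENG, the accessory receptor endoglin, 1.14 (0.946 to 1.37).

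Genes that cut the precursors or free the latent ligands leaned the same way. Of 14 with at least 100 reads, 13 had a log2 ratio below 0, beside 57.9% of all genes at that depth. An interval wholly below 1 was found for 11 and one wholly above 1 for 0, beside 32.4% and 17.6%, and the median ratio was 0.751. MMP9, a gelatinase able to release latent TGF-beta, was at 50.5 UQRPKM after SMAD4-siRNA and 131 after NC-siRNA, a ratio of 0.385 (0.306 to 0.481), the only one of the 14 past 2-fold. THBS1, the matrix protein thrombospondin that activates latent TGF-beta, had a ratio of 0.583, and ITGB1, an integrin beta chain, 0.695 (0.675 to 0.716). The convertase PCSK7 had 0.931 (0.872 to 0.994), MMP14 0.996 (0.942 to 1.05) and the convertase PCSK5 1.29 (0.957 to 1.74). PCSK5 has a further entry under its own symbol, at 0.725 UQRPKM after NC-siRNA and 0 after SMAD4-siRNA, so its reads may be split.

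Of 7 antagonists of BMPs and related binding proteins with at least 100 reads, 6 had a log2 ratio below 0, where 57.9% of all genes at that depth did. Intervals lay wholly below 1 for 5 and wholly above for 1, beside 32.4% and 17.6% of all these genes. CHRDL1, a chordin-like BMP antagonist, was at 687 UQRPKM after SMAD4-siRNA and 1144 after NC-siRNA, a ratio of 0.601 (0.560 to 0.644). CRIM1, a membrane protein that binds BMPs, had the same ratio of 0.601, and BMPER had 0.688 (0.527 to 0.895). BAMBI, a pseudoreceptor that damps TGF-beta and BMP signals, had 0.711 (0.615 to 0.822). TWSG1, which binds BMPs together with chordin, had 0.993, and NBL1, a BMP antagonist of the DAN family, had 1.10 (1.07 to 1.14). FST, with 0.920, lay between these ends.

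Relatives of follistatin that carry follistatin-like domains were spread out. Of 5 with at least 100 reads, 3 were below 0, all with an interval wholly below 1, and 1 had an interval wholly above 1, beside 32.4% and 17.6% of all genes at that depth. SMOC1, a matricellular protein that modulates BMP signals, had a ratio of 0.513 (0.352 to 0.739), and IGFBP7 had 0.751 (0.732 to 0.770). SPARC, among the more abundant matrix transcripts, was at 48254 UQRPKM after SMAD4-siRNA and 59126 after NC-siRNA, a ratio of 0.816. SPOCK3 had 1.08 (0.784 to 1.498). AGRN, the proteoglycan agrin, had the highest ratio, 2.27 (2.04 to 2.53), in an entry named from the reference table, while the entry under its own symbol was listed at 0.

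**Figure D5:**
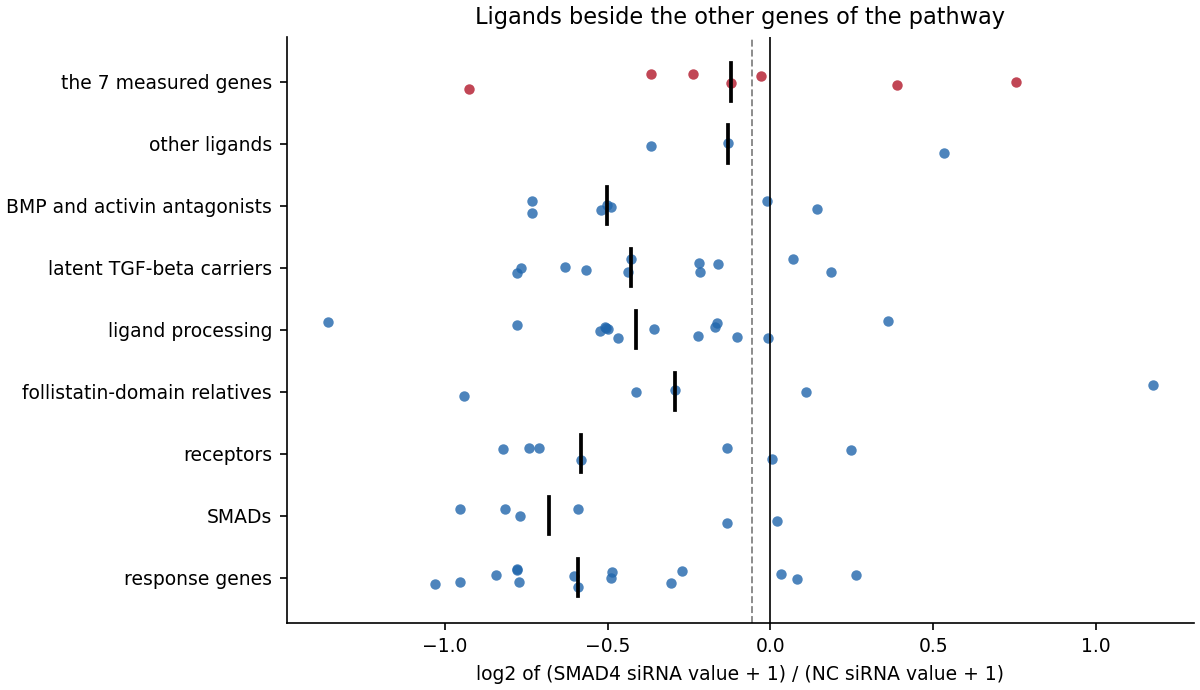
Log2 ratio of (value + 1) for the 7 measured genes (red) and, for each other list, its genes with at least 100 reads (blue). Black bars are medians, the dashed line the median of all genes with at least 100 reads (-0.06) and the solid line 0; TGFB3 and TGFB1 are the ends of the top row, at -0.93 and 0.75.

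Of 7 receptors with at least 100 reads, 4 had an interval wholly below 1 and 0 one wholly above, beside 32.4% and 17.6% of all genes at that depth. TGFBR2, the type II TGF-beta receptor, had a ratio of 0.564, BMPR2 0.594 and ACVR1B, a type I receptor of activin, 0.610, with BMPR1A at 0.908, BMPR1B at 1.003 and ACVRL1 at 1.20 (0.796 to 1.83) at the other end. TGFBR1, the type I TGF-beta receptor, had 35 reads, with 3.48 UQRPKM after SMAD4-siRNA and 2.88 after NC-siRNA, a ratio of 1.21 (0.589 to 2.54). Among the 5 measured SMADs other than SMAD4, the target of the siRNA, 3 had an interval wholly below 1, beside 32.4% of all genes with at least 100 reads. SMAD6 had 0.513, SMAD9 0.585, SMAD7 0.663, SMAD3 0.912 and SMAD2 1.01.

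Of 15 genes known to respond to these ligands with at least 100 reads, a list that shares SMAD6, SMAD7, THBS1, BAMBI and LTBP2 with the lists above, 12 had an interval wholly below 1 and 1 one wholly above, beside 32.4% and 17.6% of all genes at that depth. CDKN2B, a CDK inhibitor, was the lowest at 0.483 (0.366 to 0.635), and TGFBI had 0.555. COL1A1 had 1.06 (1.01 to 1.11), TGIF1 1.02 and SKIL 1.21 (0.854 to 1.71). COL1A1 has 2 entries under its name, of which the one with the higher mean is given, so its reads may be split. TGFB3 at 0.524 stood near the low end of these response genes, while TGFB1 at 1.69 stood above the highest of them.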

How the data were processed

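The authors deposited upper-quartile-scaled RPKM for 1 pooled library per group; the unit is known from the names of the deposited tables. The aligner, counter, genome build and annotation were not given in the sources used here, so no coordinates are printed.

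Reads were taken back from the values. The commonest ratio between libraries was 0.908163 (665 of 16239 genes, rounded to 6 decimals). It fixes the proportion of the divisors for NC-siRNA and SMAD4-siRNA but not their size. The divisors were set at 890 and 980, a size on which only the lengths given below bear. With these divisors, all 18428 genes above 0 gave whole reads at a whole length up to 40000 bases (relative tolerance 2e-09, absolute 1e-06). The smallest such reads were used. If the divisors have the right size, reads are lower bounds and intervals are at least as wide as with the true reads. Lengths so obtained had a median of 71 bases for 33 tRNAs and 80 for 8 miRNA entries, and 960 and 1571 for the mitochondrial 12S and 16S rRNAs.

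The log2 ratio was that of (SMAD4-siRNA value + 1) over (NC-siRNA value + 1), and a gene counted as measured when its mean value reached 1. It understates changes of low genes, so plain ratios are printed for single genes. Ratios carry exact Clopper-Pearson 95% intervals from the split of reads, levels exact Poisson ones, and ratios between 2 genes exact conditional ones for a table of reads. The alternatives tried were other pseudocounts (0.1 and 5), median centring, equal sums of values, other minimums, folds of 1.5 and 4, and at least 100 reads. The steps were tested on simulated data. Of 19902 IDs without a symbol, 2090 were named with the help of the RefSeq gene table for Sscrofa11.1, used for names alone. Where a name had several entries, lists took the one with the higher mean. Named beside the 10 genes are SMAD4, TGFBR1 and up to 3 genes at each end of every pathway list with at least 100 reads. TGFBR1, marker genes, FLNA and POR were chosen after their values were seen, as were the pairs of genes set as ratios. The genes and lists were chosen with earlier results of these data known. Software was Python 3.11.15, numpy 2.4.6, pandas 2.3.3, scipy 1.17.1 and matplotlib 3.10.9.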

Additional observations from a re-analysis of the deposited data

How the results depend on the processing

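No paired analysis was possible because each group has 1 library, and for the same reason no library could be left out. TGFB1, INHBA and TGFB3 kept their direction under pseudocounts of 0.1 and 5, centring on the median and equal sums of values, with log2 ratios from 0.74 to 0.87, 0.39 to 0.51 and -0.93 to -0.81. INHBA moved out of its counting interval with both libraries at the same sum of values, at 0.51, since that setting adds 0.12 to every log2 ratio. BMP4, whose interval holds 1, ranged from -0.03 to 0.09. The counts of the 7 measured genes past 2-fold, 0 higher and 0 lower, became 1 and 1 with a fold of 1.5, by construction of the lower threshold, and were 0 and 0 under every other setting run. The intervals wholly above 1 (2) and below 1 (1) were the same with equal sums, an alternative chosen after seeing the data. Median log2 ratios of the other lists kept their sign under the settings run, other than that of the other ligands, which ranged from -0.04 to 0.47. Some moved in size. The receptor median went from -0.23 to -0.41 with no minimum mean value and also with a minimum of 5. The median of the ligand processing genes went from -0.39 to -0.29 with a pseudocount of 5 and also with equal sums. TGFB2 and BMP4 have the widest intervals of the 7. These rest on the smallest whole reads, found for BMP4 at a length of 482 bases and for TGFB2 at 3932. If the true BMP4 reads are more, its interval is narrower, so how far depth limits BMP4 is not known.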
